A study of Mus musculus with 20 samples.

Results

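The 8 genes described here encode transcription factors that set and maintain the skeletal muscle programme: the 4 myogenic regulatory factors Myod1, Myog, Myf5 and Myf6, the satellite cell factor Pax7, and the MEF2 factors Mef2a, Mef2c and Mef2d. They were chosen by name and taken from a deposited table of read counts by their symbols. All 8 were found among its 53311 rows, and all 8 were among the 13560 genes that held enough counts to be tested. The samples were 20 libraries of mouse gastrocnemius, a calf muscle of mostly fast fibres, from a study of muscle BMAL1, a core transcription factor of the circadian clock, and acute exercise. There were 4 groups with 5 libraries in each. Every library carried the same genotype label, Cre+:iMSBmal1 fl/fl, so the control animals also bore the Cre and the floxed Bmal1 alleles, and the groups were set apart by a treatment label, which was either vehicle or iMSBmal1KO. Within each treatment, 1 group was at rest, and the other was taken 1 h after 30 min on a treadmill. All libraries, at rest and after exercise, were listed at ZT13 (13 h on the clock of the light cycle). The iMSBmal1KO exercise group was labelled as acutely exercised in title and treatment and as trained in its description, and it was analysed as acute exercise. The promoter that drives the Cre, and the strain, age and sex of the animals, are not given in the labels. The labels do not say that replicates were separate animals, so p-values measure the spread between these libraries, which may in part be technical.

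Myod1, Myog, Myf5 and Myf6 are basic helix-loop-helix proteins that pair with E proteins and bind E-boxes in the promoters of muscle genes. Myf5 and Myod1 commit cells to the muscle lineage, Myog drives their differentiation, and Myf6 (MRF4) is the member most abundant in adult fibres, while Pax7 marks the quiescent satellite cells that repair muscle. MEF2 proteins bind a different, A/T-rich site, work together with the myogenic factors, and are held in check by class II histone deacetylases until calcium signals release them. Myod1 is known as an output of the muscle clock.

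Total counts ran from 8045154 to 11269812 per library. Arntl, the gene that encodes BMAL1 and the target of the deletion, was not lower in the libraries labelled iMSBmal1KO: its mean level, in CPM, counts scaled to a common library size after adjustment by TMM, was 12.3 ± 2.39 (SD, n = 5) in vehicle at rest and 14.5 ± 1.94 in iMSBmal1KO at rest, a log2 difference of 0.24 with an adjusted p of 0.725 in edgeR's quasi-likelihood test. Which exons the floxed alleles lose is not given in the labels, so this whole-gene count does not check them, and every direction below rests on the labels. Dbp, a direct clock output, was 6.34-fold lower in the libraries labelled iMSBmal1KO at rest (log2 difference -2.66, SE 0.10) and 5.25-fold lower after exercise. The defining genes of skeletal muscle, a list of 7 with Acta1, Ckm and Ttn, were all detected across the libraries, with summed levels from 66624 to 99142 CPM per library. Libraries also differed in slow-fibre content. A slow-fibre score, the mean log2 CPM of the 7 genes Myh7, Tnnt1, Tnni1, Tnnc1, Myl2, Myl3 and Atp2a2, ran from -0.41 to 8.65, and the 5 lowest libraries were replicate 5 of vehicle rest, replicates 2 and 4 of vehicle exercise, and replicates 2 and 4 of iMSBmal1KO exercise.

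Per kilobase of merged exon the 8 genes covered a wide range of levels, and the value of Myf6 was the highest. Over all 20 libraries Myf6 stood at 70.5 ± 17.9 CPM per kilobase. Mef2d followed at 36.4 ± 3.21 and Mef2c at 32.2 ± 4.83, with Mef2d above Mef2c in 17 of 20 libraries. Myod1 reached 22.4 ± 9.80 CPM per kilobase, and its range overlapped that of Mef2c. The lower levels were those of Mef2a at 8.85 ± 0.902, Myog at 3.95 ± 1.88, Myf5 at 0.793 ± 0.258 and Pax7 at 0.357 ± 0.120 CPM per kilobase. Neighbours in this order had overlapping ranges, apart from Myf6 and Mef2d. Exon lengths were taken from GENCODE M21, where the merged exons of Mef2c come to 15715 bases and those of Mef2a to 14681 bases. Transcripts in muscle may use fewer of these exons, and the per-kilobase levels of these genes would then be higher than given. The places of Myf6 and Mef2d above Mef2c rest on these lengths and could then change. Mef2b, the remaining MEF2 gene and not one of the 8, held 0 to 5 counts per library and was not tested.

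**Figure D1:**
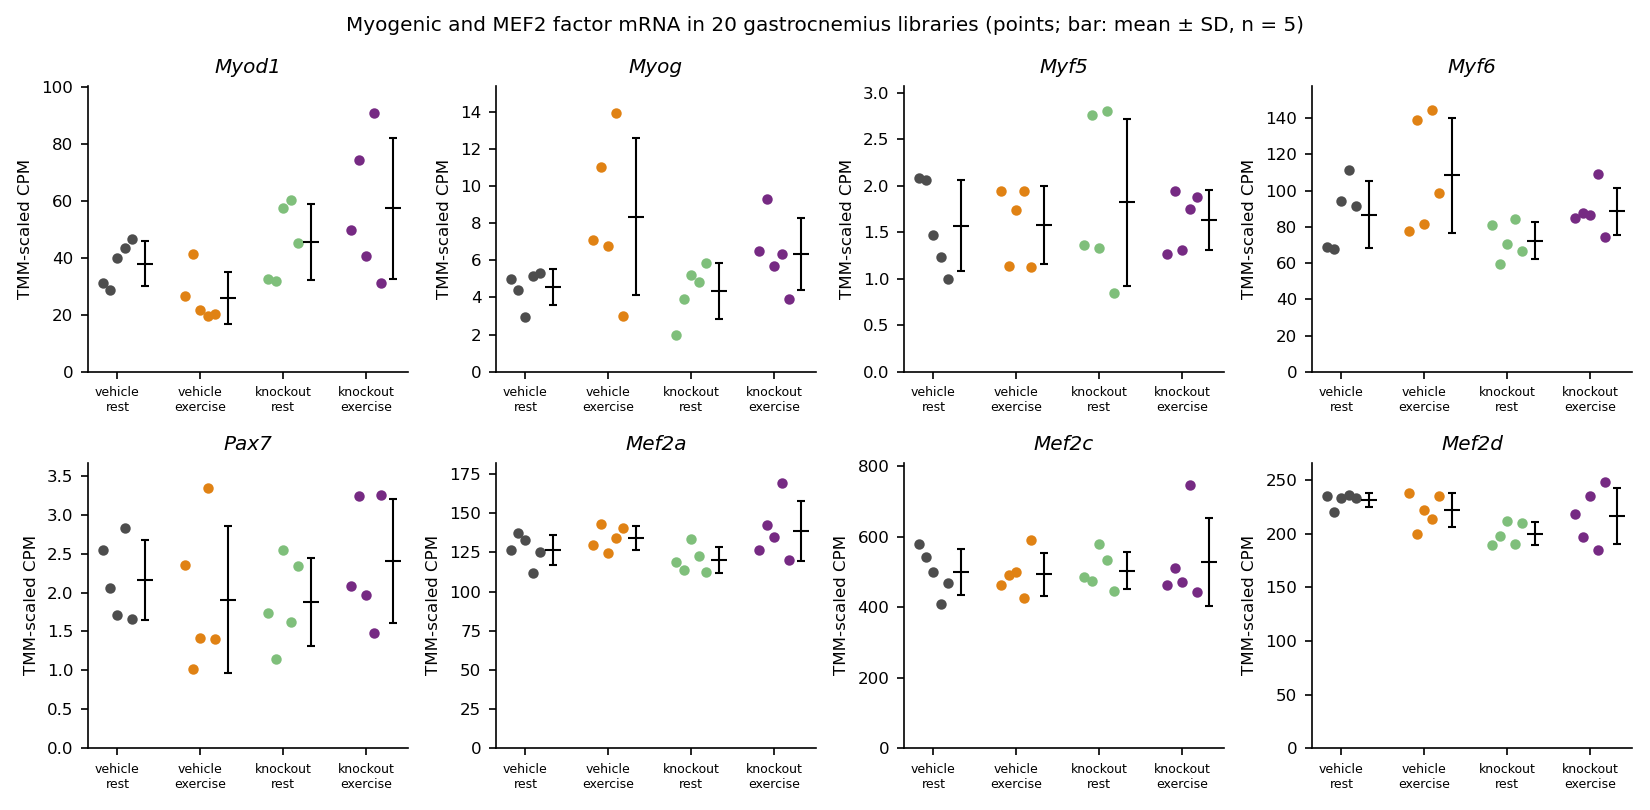
Levels of the 8 genes, in TMM-scaled CPM on linear axes that start at 0, in each of the 20 libraries by group (points), with the mean and SD of 5 libraries beside them; knockout stands for the iMSBmal1KO label. Myod1 runs from 19.6 CPM in a vehicle exercise library to 90.8 CPM in an iMSBmal1KO exercise library, and the MEF2 genes spread much less.

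Myod1 was the only member to pass the test in any comparison. After exercise it was higher in the muscles labelled iMSBmal1KO than in vehicle muscles, by 2.21-fold. In vehicle exercise it stood at 26.6, 41.2, 21.6, 19.6 and 20.2 CPM in replicates 1 to 5. In iMSBmal1KO exercise the values were 49.6, 74.3, 40.6, 90.8 and 31.3 CPM. All but 1 of the vehicle exercise libraries lay below every iMSBmal1KO exercise library, and the exception, replicate 2 with 41.2 CPM, lay above the lowest 2 of that group. The group means were 25.8 ± 9.00 and 57.3 ± 24.6 CPM (SD, n = 5). The log2 difference was 1.15 (SE 0.29, 95% interval 0.54 to 1.76, edgeR's quasi-likelihood test with Benjamini-Hochberg adjustment over 13560 genes, adjusted p = 0.0239). It was the one member of the 8 called in this comparison, where 6.42 percent of all tested genes were called and 2.67 percent were called higher. It was also the 1 member with an unadjusted p under 0.05 there, beside 19.4 percent of all genes.

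At rest the Myod1 groups overlapped in part. Vehicle rest held 31.1, 28.6, 40.0, 43.3 and 46.6 CPM, and iMSBmal1KO rest held 32.7, 31.9, 57.5, 60.2 and 45.1 CPM. Both groups had low and high libraries, with 2 of the iMSBmal1KO libraries above every vehicle library and 2 of the vehicle libraries below every iMSBmal1KO library. The log2 difference was 0.27 (95% interval -0.34 to 0.87, edgeR adjusted p = 0.759). Exercise moved the fitted Myod1 level in opposite directions in the treatments, by -0.55 (SE 0.29, adjusted p = 0.626) in vehicle and by 0.33 (SE 0.28, adjusted p = 0.9995) in iMSBmal1KO on the log2 scale, and neither change passed the test. The interaction, which is the difference between these responses, was 0.88 (SE 0.41, unadjusted p = 0.0440, adjusted p = 0.849), so a different response to exercise was not shown. Averaged over rest and exercise, Myod1 was 1.63-fold higher under the iMSBmal1KO label (log2 difference 0.71, SE 0.20, adjusted p = 0.0316), again as the 1 member called, where 11 percent of all tested genes were called and 5.18 percent were called higher. These comparisons share libraries with each other, so the values for Myod1 are not independent.

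Single libraries decided whether Myod1 was called. The call after exercise was lost when replicate 1, 3, 4 or 5 of vehicle exercise or replicate 2 or 4 of iMSBmal1KO exercise was left out, with log2 differences from 0.92 to 1.38 and adjusted p up to 0.0711 over all 20 such fits; the call on the average over rest and exercise was lost in 10 of 20 (replicates 1 and 2 of vehicle rest, 1, 3, 4 and 5 of vehicle exercise, 3 and 4 of iMSBmal1KO rest, 2 and 4 of iMSBmal1KO exercise), with adjusted p up to 0.0617. The call after exercise was also lost when only these groups were fitted (adjusted p = 0.0820) and when genes of low counts were kept (adjusted p = 0.0558), and the averaged call when genes of low counts were kept (adjusted p = 0.0757) and with the replicate number as a block (adjusted p = 0.0587).

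**Figure D2:**
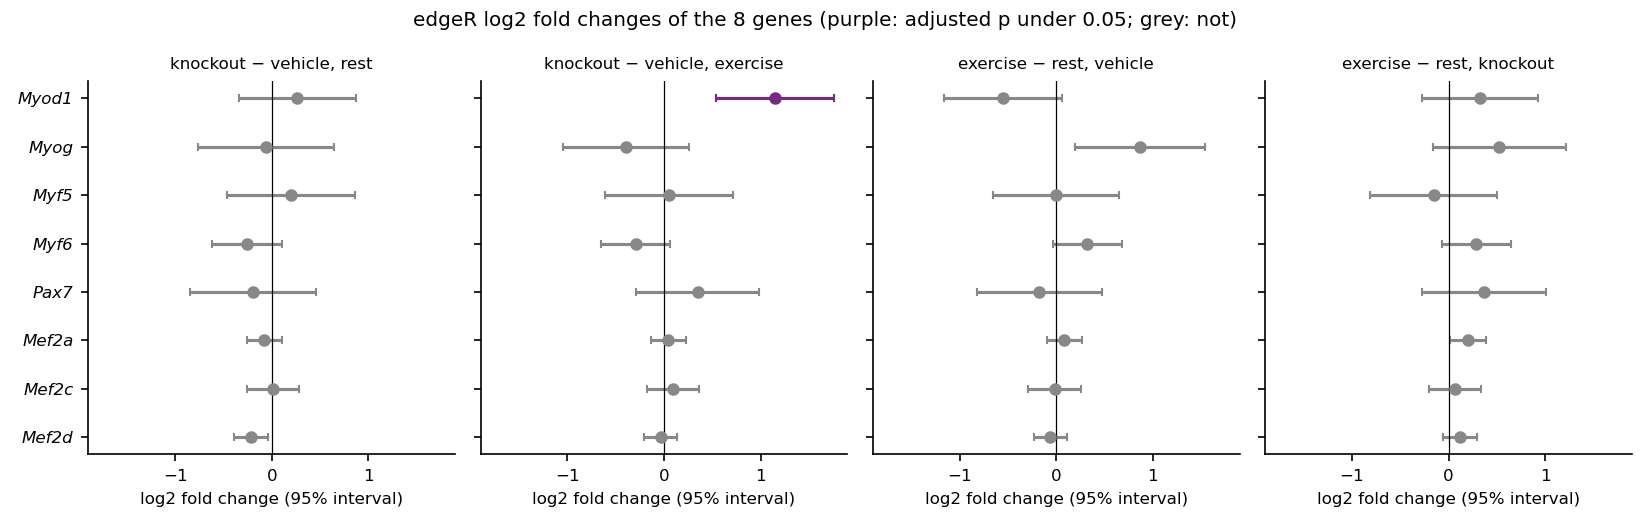
Log2 fold changes of the 8 genes in 4 comparisons (points) with 95% intervals (bars) on a common axis; knockout stands for the iMSBmal1KO label. The Myod1 difference after exercise, 1.15 with an interval from 0.54 to 1.76, is the one coloured as passing an adjusted p of 0.05.

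Myod1 followed the slow-fibre content of the libraries. After group means were removed, its log2 CPM and the slow-fibre score had a Pearson r of -0.80 over 20 libraries (permutation p = 0.00035, adjusted p = 0.0028 over 8 genes) and a Spearman rho of -0.77 (adjusted p = 0.00152). Without replicate 2 of vehicle exercise and replicate 4 of iMSBmal1KO exercise, the libraries with the most extreme scores, r was -0.67 (permutation p = 0.00600). The highest Myod1 levels of iMSBmal1KO exercise, 90.8 and 74.3 CPM, were those of its slow-fibre-poor libraries, with scores of 0.44 and 0.74, and the highest of vehicle exercise, 41.2 CPM, was also that of its slow-fibre-poorest library. Not every slow-fibre-poor library was high: replicate 4 of vehicle exercise, with a score of 2.68, had the lowest Myod1 of all 20 libraries, 19.6 CPM. The score itself averaged 4.79 ± 3.60 in vehicle exercise and 4.29 ± 3.52 in iMSBmal1KO exercise (exact permutation test, two-sided, p = 0.810). The summed level of the slow-fibre list ran from 35.5 to 2344 CPM in vehicle exercise and from 48.3 to 2377 CPM in iMSBmal1KO exercise. No gene of the 7 was called in any comparison or was at 0 in all 20 libraries. After exercise all 4 red blood cell genes on the marker list (Hba-a1, Hba-a2, Hbb-bs and Hbb-bt) were fitted lower under the iMSBmal1KO label, with a median log2 difference of -1.005 and 1 of them called, and their summed level ran from 56.7 to 360.0 CPM in vehicle and from 46.4 to 134.5 CPM under the label. All 5 fibroblast genes (Pdgfra, Dcn, Col1a1, Col3a1 and Lum) were fitted higher, with a median of 0.19 at rest and 0.29 after exercise, and none was called. Their summed level after exercise ran from 186.2 to 370.4 CPM in vehicle and from 321.5 to 421.6 CPM under the label. No gene of either list was at 0 in all 20 libraries. The tested genes of Schwann cells, smooth muscle and fat cells were all fitted lower after exercise under the label, with medians of -0.29, -0.22 and -0.27. Endothelial and macrophage genes were fitted in both directions. None of these was called. The part of any of these cell types in the Myod1 difference was not tested. In bulk muscle, fewer fibres of a type and less RNA per fibre cannot be told apart.

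With the score as a covariate, the Myod1 difference after exercise was 1.01 on the log2 scale (adjusted p = 4.12e-04) and the average over rest and exercise was 0.70 (adjusted p = 2.54e-04). In that fit the exercise response of Myod1 in vehicle muscle was -0.75 and passed the test (adjusted p = 0.0258), and the response in iMSBmal1KO muscle was -0.12. That fit called more genes in general, 10.4 percent of all tested genes after exercise and 1.83 percent in the vehicle exercise response. Without the 5 libraries of lowest score, an alternative chosen after seeing the data, the Myod1 difference after exercise was 0.83 (adjusted p = 0.154) and the average was 0.59 (adjusted p = 0.0509). The calls therefore held with the score in the model and were lost with those libraries removed. The removed libraries were replicate 5 of vehicle rest and replicates 2 and 4 of each exercise group. The exercise groups were then smaller, so low slow-fibre content and fewer libraries cannot be told apart in that fit.

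**Figure D3:**
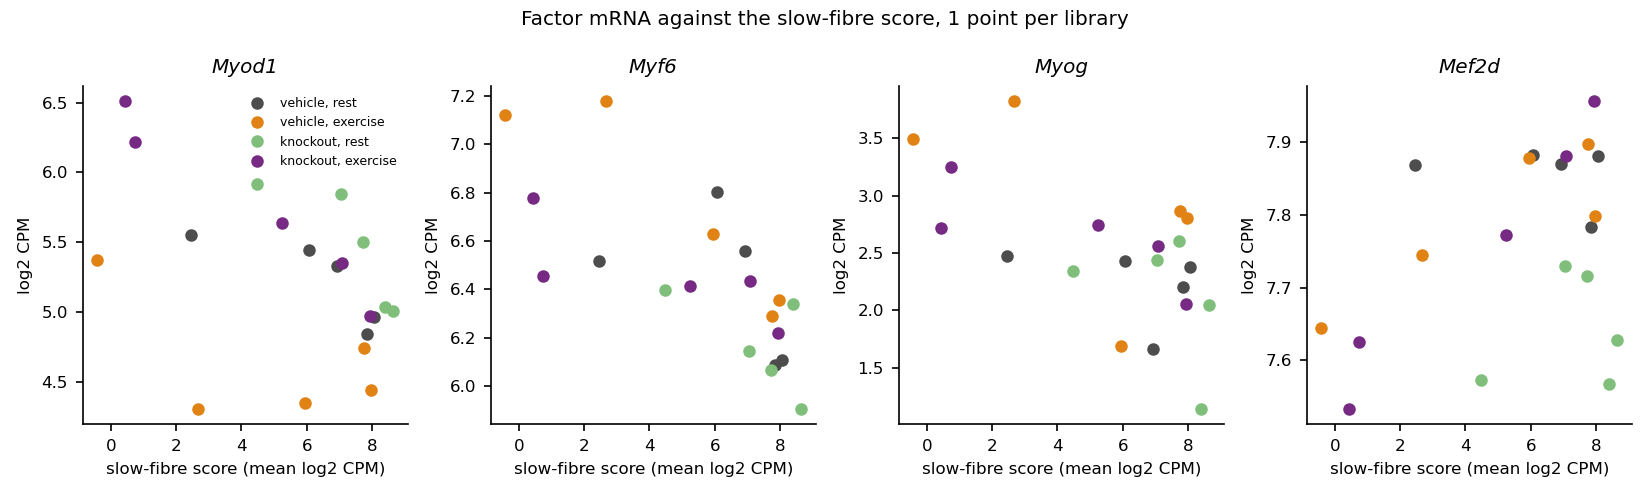
Log2 CPM of Myod1, Myf6, Myog and Mef2d (vertical axes) against the slow-fibre score in mean log2 CPM (horizontal axes), with 1 point per library coloured by group; knockout stands for the iMSBmal1KO label. Myod1 and Myf6 lie higher in slow-fibre-poor libraries and Mef2d lies lower, with group-centred r of -0.80, -0.74 and 0.72. Within the rest groups the r of Mef2d was -0.30 in vehicle and 0.20 in iMSBmal1KO.

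Myf6 showed the same relation to fibre content and no call. Its group-centred r with the slow-fibre score was -0.74 (permutation p = 0.00083, adjusted p = 0.00332), rho was -0.80 (adjusted p = 0.000800), and r was -0.64 without the 2 most extreme libraries. Vehicle rest held 68.8, 67.8, 94.2, 111.5 and 91.4 CPM of Myf6, and vehicle exercise held 78.0, 139.2, 81.7, 144.6 and 98.8 CPM. Replicates 2 and 4 of vehicle exercise, both poor in slow fibres, were the highest of all 20 libraries, and the other vehicle exercise values lay within the range at rest. Under the iMSBmal1KO label, rest held 80.8, 59.8, 70.6, 84.2 and 66.9 CPM and exercise held 85.2, 87.7, 86.3, 109.5 and 74.4 CPM. Each of these groups overlapped its vehicle counterpart. Averaged over rest and exercise the log2 difference under the iMSBmal1KO label was -0.28 (95% interval -0.53 to -0.02, unadjusted p = 0.0350, edgeR adjusted p = 0.166). In this averaged comparison 3 of the 8 members, Myod1, Myf6 and Mef2d, had an unadjusted p under 0.05, beside 24.2 percent of all genes.

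Myog, the differentiation factor, is shown with its promoter because it is the member whose regulation by E-boxes and MEF2 sites is classical. The sequence below covers 250 bases before to 50 bases after the RefSeq start, chr1:134289754-134290053 on the plus strand of GRCm38.p6, with matches to the E-box CANNTG, a motif that reads as CANNTG on both strands, in capitals.

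Myog: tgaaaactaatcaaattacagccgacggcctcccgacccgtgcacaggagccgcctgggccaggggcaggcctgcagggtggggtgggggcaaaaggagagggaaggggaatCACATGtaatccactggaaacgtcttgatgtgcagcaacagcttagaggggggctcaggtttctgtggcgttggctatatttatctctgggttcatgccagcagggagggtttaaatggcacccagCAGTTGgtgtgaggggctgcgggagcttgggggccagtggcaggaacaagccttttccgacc

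The promoter of Myog held 2 such matches, CACATG at 138 bases and CAGTTG at 12 bases before the start. Of 32544 mouse promoters of the same length, 72.3% held at least 1 match, so this motif does not set Myog apart. The narrower forms were rarer: CAGCTG, favoured by myogenic factors, was in 16.4% and CACGTG, the form bound by BMAL1 with CLOCK, in 7.17% of promoters. Both narrower forms are special cases of CANNTG, and neither was in the Myog window. The MEF2 site was searched as YTAWWWWTAR (Y for C or T, W for A or T, R for A or G), and this strict pattern had no match there. The window does hold ctatatttat, which departs from the pattern only in its last base, so the search does not show that a MEF2 site is absent. Entries were found for 6 of the 8 genes. Myod1 and Myf6 had none, so their promoters were not searched for any of these motifs.

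Myog mRNA was low and varied most in exercised vehicle muscle. Its levels were 5.0, 4.4, 2.9, 5.2 and 5.3 CPM in vehicle rest and 7.1, 11.04, 6.8, 13.9 and 3.0 CPM in vehicle exercise. After exercise 4 of 5 libraries were above every resting vehicle library, and replicate 5 lay among the lowest of them. The log2 change was 0.86 (SE 0.32, 95% interval 0.19 to 1.54), with an unadjusted p of 0.0145 and an edgeR adjusted p of 0.355. It ran from 0.34 to 0.87 over 12 alternative settings and from 0.60 to 1.08 when 1 library was left out, and never passed. In this comparison none of the 8 members was called, and 0.804 percent of all tested genes were called. Myog was the 1 member with an unadjusted p under 0.05, beside 8.92 percent of all genes. The iMSBmal1KO groups held 2.0, 3.9, 5.2, 4.9 and 5.9 CPM at rest and 6.5, 9.3, 5.7, 6.3 and 3.9 CPM after exercise, with overlapping ranges. There the log2 change was 0.52 (95% interval -0.16 to 1.21, adjusted p = 0.9995), where edgeR called 0 percent of genes, 4.71 percent of genes had an unadjusted p under 0.05, and 1 of the 8 members did. Myog was also higher in slow-fibre-poor libraries by rank (rho -0.70, adjusted p = 0.00736), while its Pearson r of -0.54 had an adjusted p of 0.0610.

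Myf5 and Pax7, which mark satellite cells and their progeny, had the fewest counts of the 8 genes. Myf5 was read 8 to 26 times and Pax7 9 to 38 times per library. Mean levels of Myf5 were 1.57 ± 0.490 CPM in vehicle rest, 1.58 ± 0.417 in vehicle exercise, 1.82 ± 0.899 in iMSBmal1KO rest and 1.63 ± 0.319 in iMSBmal1KO exercise. For Pax7 they were 2.16 ± 0.513, 1.91 ± 0.941, 1.88 ± 0.566 and 2.41 ± 0.800 CPM in the same order. All groups of both genes overlapped. Their log2 changes lay between -0.20 and 0.54 over the 6 comparisons, with adjusted p of at least 0.587. The 95% intervals reached from -1.09 to 1.46, both bounds being those of the interaction, and do not exclude changes within them. In the other 5 comparisons the SE was 0.22 to 0.32.

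The MEF2 genes varied little between groups. Mef2a is shown with its promoter because it is the only MEF2 member here with a match to the same strict MEF2 pattern in it. The sequence covers 250 bases before to 50 bases after the RefSeq start, chr7:67372809-67373108 on the minus strand of GRCm38.p6, with the match in capitals.

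Mef2a: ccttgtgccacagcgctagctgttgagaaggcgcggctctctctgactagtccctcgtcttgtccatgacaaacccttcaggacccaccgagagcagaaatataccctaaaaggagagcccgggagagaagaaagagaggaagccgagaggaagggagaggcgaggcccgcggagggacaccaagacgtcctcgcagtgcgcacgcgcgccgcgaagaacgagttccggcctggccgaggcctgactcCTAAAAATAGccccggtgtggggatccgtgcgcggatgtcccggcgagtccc

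The match, CTAAAAATAG, begins 2 bases before the start, and a MEF2 site on either strand was in 3.16% of 32544 promoters. It is a match of letters, and binding was not measured. Mef2a, a MEF2 gene of adult fibres, averaged 126.7 ± 9.68 CPM in vehicle rest, 134.3 ± 7.68 in vehicle exercise, 120.2 ± 8.43 in iMSBmal1KO rest and 138.6 ± 19.0 in iMSBmal1KO exercise. Its change with exercise under the iMSBmal1KO label was 0.20 on the log2 scale (95% interval 0.02 to 0.39, unadjusted p = 0.0311, edgeR adjusted p = 0.9995). Mef2c, which is needed for sarcomere assembly, had the highest CPM of the members, with group means between 493.9 and 527.6 CPM and log2 changes between -0.02 and 0.10 over the 6 comparisons. Replicate 4 of iMSBmal1KO exercise was highest for both genes, at 169.1 CPM of Mef2a and 747.0 CPM of Mef2c. Mef2a and Mef2c rose and fell together across libraries, with a group-centred r of 0.84 (permutation test, adjusted p = 0.00896 over 28 pairs of members) and a rho of 0.78. Without the 2 libraries whose group-centred Mef2a lay farthest from its median, r was 0.71. They were the only pair of the 28 with an adjusted p under 0.05.

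Mef2d, which has a muscle-specific splice form that promotes differentiation, was the most even of the 8 genes and was the only member whose groups did not overlap in a comparison. Vehicle rest held 235.6, 220.1, 233.7, 235.7 and 233.6 CPM, and iMSBmal1KO rest held 189.4, 197.7, 212.1, 190.1 and 210.1 CPM. Every iMSBmal1KO library at rest was below every vehicle library at rest. The log2 difference was -0.21 (SE 0.08, 95% interval -0.39 to -0.04, unadjusted p = 0.0174), and it did not pass after adjustment (edgeR adjusted p = 0.197). None of the 8 members was called at rest, where 3.86 percent of all tested genes were called. Mef2d was the 1 member with an unadjusted p under 0.05 at rest, beside 14.6 percent of all genes. Groups at rest did not overlap for 1 of 8 members and for 5.80 percent of all tested genes; in the other comparisons of groups they overlapped for all 8 members, while they did not for 6.29 percent of all genes after exercise and for 2.04 and 0.848 percent in the exercise responses of vehicle and iMSBmal1KO. After exercise Mef2d held 238.3, 199.8, 222.4, 214.2 and 235.1 CPM in vehicle and 218.4, 197.2, 235.5, 185.0 and 248.2 CPM under the iMSBmal1KO label, and these groups overlapped (log2 difference -0.03, adjusted p = 0.876). Over all 20 libraries Mef2d rose with slow-fibre content, with a group-centred r of 0.72 (permutation p = 0.00414, adjusted p = 0.0110). Its rho was 0.59 (adjusted p = 0.0544), and r was 0.57 without the 2 most extreme libraries. Within groups, r was 0.88 in vehicle exercise and 0.98 in iMSBmal1KO exercise, but -0.30 in vehicle rest and 0.20 in iMSBmal1KO rest. With the slow-fibre score in the model the difference at rest was -0.24 and passed (adjusted p = 0.0275), in a fit that called 6.22 percent of all tested genes at rest. That fit used the same slope in every group, at rest and after exercise. An antisense gene, 1700113A16Rik, overlaps 531 bases of the Mef2d exons, and how the counting used strand is not given in the sources used here.

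Across all members the interaction of label and exercise gave 0 calls in edgeR, where 0 percent of all 13560 genes were called, 791 genes (5.83 percent) had an unadjusted p under 0.05, and 1 of the 8 members, Myod1, did. DESeq2 and limma-voom also called 0 members in the interaction, at rest and in both exercise responses. Over all genes DESeq2 called 675 at rest, 195 in the vehicle exercise response, 0 in the iMSBmal1KO response and 3 in the interaction, and limma-voom called 504, 81, 0 and 0. The median log2 difference of the 8 genes was -0.07 at rest and 0.05 after exercise, beside 0.01 for all tested genes in both comparisons.

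The proteins that work with or against the myogenic factors are the E proteins, the ID proteins that sequester them, and repressors such as the DEC factors. Of 19 genes on that list, 13 were tested and 2 were called at rest (15.4% of the list, beside 3.86 percent of all genes), both lower under the iMSBmal1KO label. After exercise, where Myod1 was called, neither of these was: Bhlhe40 was at -0.48 (adjusted p = 0.213) and Bhlhe41 at -0.18 (adjusted p = 0.550). Averaged over rest and exercise, where Myod1 was also called, both were called lower (15.4% of the list, beside 11 percent of all genes). There Bhlhe40 was at -0.87 (edgeR adjusted p = 6.23e-04) and Bhlhe41 at -0.35 (adjusted p = 0.0246). A link between these genes and Myod1 was not tested. The median log2 difference at rest was 0.05 for the list and 0.01 for all genes. Bhlhe40 (DEC1), a repressor that is itself driven by the clock, fell from 79.9 ± 8.78 to 33.5 ± 9.40 CPM at rest (log2 difference -1.25, SE 0.22, edgeR adjusted p = 0.00138), and the groups did not overlap. Its paralogue Bhlhe41 (DEC2), which is known to interact with Myod1 and repress it, fell by 0.53 on the log2 scale at rest (adjusted p = 0.0358, up to 0.129 when 1 library was left out).

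Of 26 regulators of MEF2 activity and their partners, 24 were tested. Tead4, a TEAD factor known as a target of the myogenic factors, rose from 9.75 ± 1.71 CPM to 39.5 ± 7.16 CPM at rest and from 9.54 ± 2.74 to 39.3 ± 3.28 CPM after exercise. Its lowest iMSBmal1KO library, at 30.7 CPM, was above its highest vehicle library, at 12.5 CPM, and the log2 difference was 2.02 (SE 0.16, adjusted p = 2.26e-08) at rest and 2.04 (SE 0.16, adjusted p = 1.82e-08) after exercise. It was the 1 gene of the list called at rest (4.17% of the list, beside 3.86 percent of all genes). After exercise, when 8.33% of the list and 6.42 percent of all genes were called, Srf, which encodes serum response factor, was also called, with a log2 difference of -0.40 (adjusted p = 0.0380, up to 0.118 when 1 library was left out). In vehicle muscle, exercise lowered 1 gene of the 24 (4.17%, beside 0.804 percent of all genes), Vgll4, a TEAD cofactor that competes with the coactivator YAP, from 26.9 ± 5.70 to 13.1 ± 1.83 CPM (log2 change -1.03, adjusted p = 0.0154, up to 0.0613 when 1 library was left out). The list medians were -0.04 at rest and 0.06 after exercise between treatments, and -0.05 for exercise in vehicle muscle.

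Among 31 muscle genes known as targets of the myogenic and MEF2 factors, all tested, 2 were called higher and 2 lower at rest under the iMSBmal1KO label, and 3 higher and 3 lower after exercise. That was 12.9% of the list beside 3.86 percent of all genes at rest, and 19.4% beside 6.42 percent after exercise. Like the other lists here, this list was chosen with earlier results of these data known. Such shares describe the lists and do not test them. Their median log2 differences were 0.03 and 0.05, beside 0.01 for all genes in each. Cdkn1a (p21), which arrests the cell cycle when myoblasts differentiate, was the largest of them, at 6.31 ± 1.09 CPM in vehicle rest and 92.3 ± 25.7 CPM in iMSBmal1KO rest (log2 difference 3.87, SE 0.20, adjusted p = 5.45e-11). Tcap, the telethonin of the sarcomeric Z-disc, fell from 2700 ± 100.3 to 919.3 ± 138.0 CPM at rest (log2 difference -1.55, adjusted p = 0.0134). After exercise Tcap stood at 1095, 398.5, 1018, 182.6 and 1319 CPM in replicates 1 to 5 of iMSBmal1KO, all below the lowest vehicle exercise library at 2230 CPM. Replicates 2 and 4, the slow-fibre-poor libraries with the most Myod1, had the least Tcap. Mylk4, a myosin light chain kinase, fell from 3297 ± 517.2 to 946.8 ± 342.7 CPM at rest (log2 difference -1.80, adjusted p = 2.54e-05) and was also lower after exercise (-1.88, adjusted p = 1.41e-05). In vehicle muscle, exercise raised 2 of the 31 genes (6.45%, beside 0.804 percent of all genes), Cdkn1a and Nr4a1. Nr4a1, an immediate early nuclear receptor with MEF2 sites, rose from 152.8 ± 77.0 to 394.7 ± 75.9 CPM (log2 change 1.37, SE 0.25, adjusted p = 0.00921).

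Acetylcholine receptor subunits are E-box targets of the myogenic factors and are repressed outside the synapse by electrical activity. Chrna1, the alpha subunit, is shown with its promoter, a choice made after its values were seen. Its window holds 3 E-boxes, and its mRNA was higher under the iMSBmal1KO label. The window is chr2:73580289-73580588 on the minus strand of GRCm38.p6, with CANNTG matches in capitals.

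Chrna1: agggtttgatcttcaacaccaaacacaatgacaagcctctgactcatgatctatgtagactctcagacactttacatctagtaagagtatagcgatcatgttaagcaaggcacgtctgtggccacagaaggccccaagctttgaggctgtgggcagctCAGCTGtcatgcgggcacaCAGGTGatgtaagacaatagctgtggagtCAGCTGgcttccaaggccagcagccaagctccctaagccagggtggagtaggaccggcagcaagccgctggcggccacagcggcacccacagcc

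The matches were CAGCTG at 92, CAGGTG at 73 and CAGCTG at 44 bases before the start. Of 32544 promoters, 72.3% held a CANNTG match and 16.4% a CAGCTG match. These are matches of letters, binding was not measured, and a link between Myod1 and Chrna1 was not tested. Chrna1 held 12.3, 15.0, 11.2, 10.5 and 10.99 CPM in vehicle rest and 26.4, 20.3, 19.9, 28.5 and 18.7 CPM in iMSBmal1KO rest. After exercise it held 15.1, 9.79, 12.97, 10.5 and 10.5 CPM in vehicle and 27.4, 40.3, 24.5, 65.5 and 17.2 CPM under the iMSBmal1KO label. Every iMSBmal1KO library was above every vehicle library, and replicates 4 and 2 of iMSBmal1KO exercise were highest, as they were for Myod1. The log2 difference of Chrna1 at rest was 0.92 and did not pass (edgeR adjusted p = 0.0692). It was 1.56 after exercise (SE 0.27, adjusted p = 0.00111) and 1.24 on average over rest and exercise (SE 0.19, adjusted p = 1.73e-04). Of 21 synaptic and denervation-responsive genes, 19 were tested, 3 were called after exercise (15.8%, beside 6.42 percent of all genes), all higher, with a list median of -0.07. The other two were Colq, the collagen tail of acetylcholinesterase (log2 difference 0.68, adjusted p = 0.0341, up to 0.115 when 1 library was left out), and Chrnb1, the beta subunit (1.15, adjusted p = 0.0231, up to 0.0617), a gene outside the naming rule and chosen after its values were seen. At rest Lrp4, the agrin receptor, was the 1 gene of the 19 called (5.26%, beside 3.86 percent of all genes), at 9.54 ± 1.97 CPM in vehicle and 14.7 ± 2.01 CPM under the iMSBmal1KO label (log2 difference 0.62, adjusted p = 0.0171, up to 0.0591 when 1 library was left out).

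**Figure D4:**
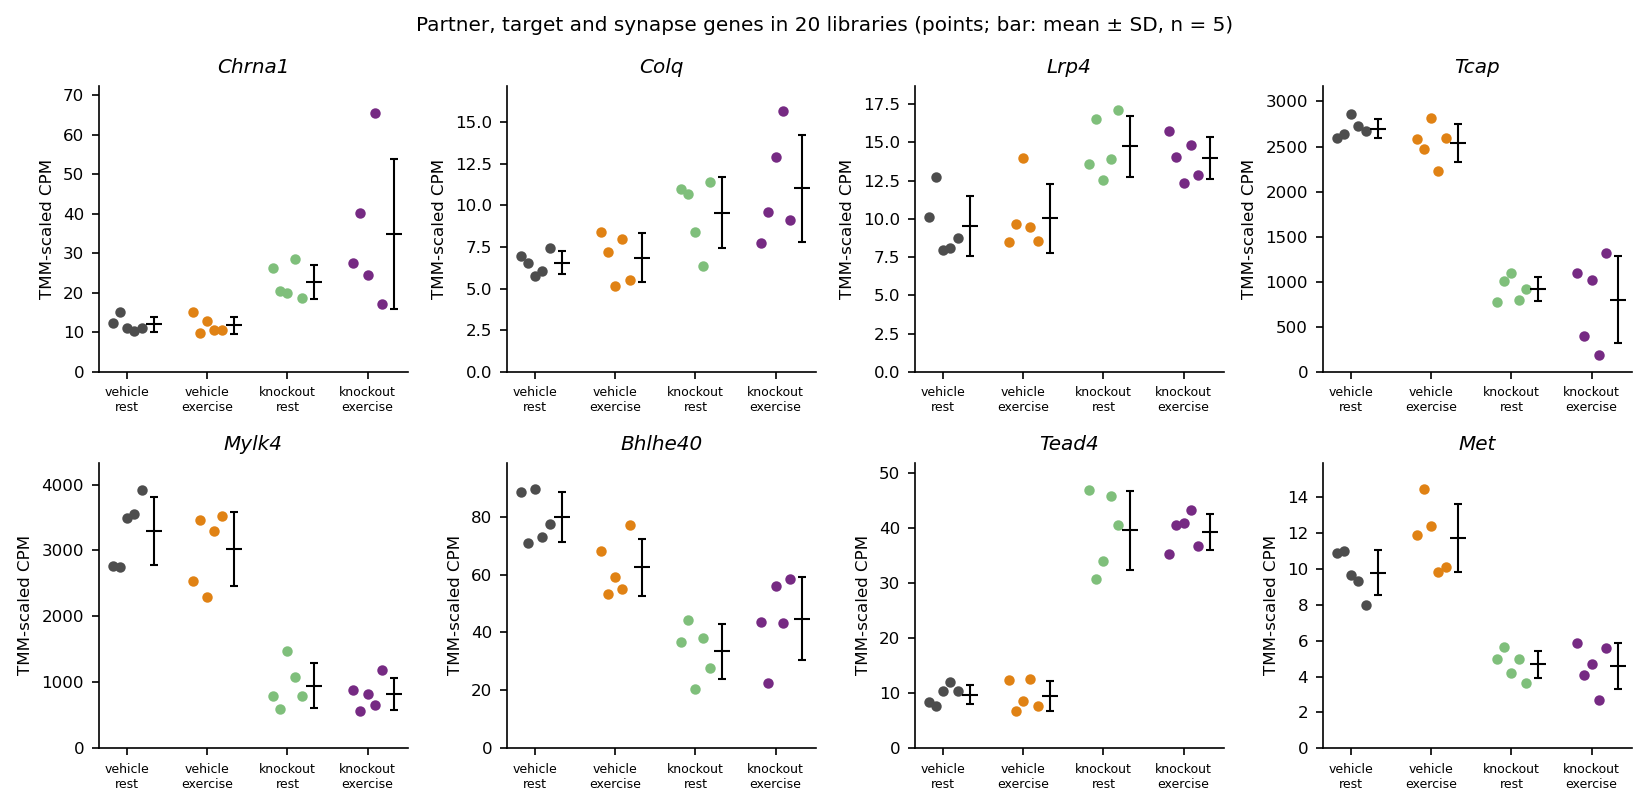
Levels, in TMM-scaled CPM on linear axes that start at 0, of synapse genes (Chrna1, Colq, Lrp4), muscle targets (Tcap, Mylk4), partners and regulators (Bhlhe40, Tead4) and the satellite cell list gene Met in each of the 20 libraries (points), with mean and SD of 5; knockout stands for the iMSBmal1KO label. Every library with that label lies above every vehicle library for Chrna1 and Tead4, and below for Tcap, Mylk4 and Met.

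Of 19 genes of satellite cells and myoblast fusion, 15 were tested. At rest 1 was called higher and 1 lower under the iMSBmal1KO label (13.3%, beside 3.86 percent of all genes), and after exercise 1 was called lower (6.67%, beside 6.42 percent). Met, the receptor for hepatocyte growth factor that activates satellite cells, fell from 9.79 ± 1.24 to 4.68 ± 0.777 CPM at rest (log2 difference -1.07, SE 0.18, edgeR adjusted p = 4.96e-04) and from 11.7 ± 1.88 to 4.60 ± 1.28 CPM after exercise (-1.34, SE 0.17, adjusted p = 2.13e-05). Sdc4, a syndecan of satellite cells that other cell types also express, was higher at rest under that label (0.82, adjusted p = 0.0421, up to 0.122 when 1 library was left out) and rose with exercise in vehicle muscle (1.04, adjusted p = 0.0289, up to 0.0954). The list medians were 0.07 at rest, 0.14 after exercise and -0.10 for exercise in vehicle muscle. Myf5 and Pax7 themselves were called in none of these comparisons.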

How the data were processed

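Per the labels' protocols, Trizol and a Qiagen kit gave total RNA from 20 mouse gastrocnemius samples. The deposited table held whole-number read counts per gene symbol, which the authors made from their reads without normalization that the values show. The submitters' processing notes name Partek, STAR 2.7.8a, DESeq2 and the builds mm10 and GRCm39, with no role or order. The counting program, its use of strand and its annotation are not given in the sources used here. No count came from a row without a gene name, and 0 columns were unmapped.

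Groups were taken from the treatment labels. In edgeR 4.0.16 (R 4.3.3), filterByExpr with a minimum count of 10 chose the genes tested, libraries were scaled by TMM, and 1 robust quasi-likelihood model with 4 group means was fitted to all 20 libraries. The 6 contrasts were both label differences, both exercise responses, their interaction and the label difference averaged over rest and exercise. The Benjamini-Hochberg adjustment covered all 13560 genes, with a threshold of 0.05. Standard errors came from the F statistics, levels are CPM, and log2 CPM used a prior count of 2. Single values were compared by exact two-sided permutation over 252 relabellings (smallest p 0.00794), and correlations used 100000 permutations within groups.

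The 8 genes, the context lists and the tests were chosen with earlier results of these data known. The rule named all 8 genes, for each the 3 most similar genes, and from each list the called genes with the 3 smallest adjusted p in the averaged label difference and in the vehicle exercise response. Promoters were RefSeq's for GRCm38.p6, and the MEF2 site was searched on both strands. On simulated counts, the contrast after exercise recovered 85.6% of 97 genes changed by 1 on the log2 scale among 13406 genes. Of its calls 2.67% were false. Genes of low mean counts, Myf5 and Pax7 among them, were not eligible to be changed. Counts were drawn independently for each gene, without shared variation such as that of slow-fibre content. The rates therefore do not cover Myf5 and Pax7 or that shared variation. Alternatives were other scalings and filters, DESeq2 1.42.0, limma-voom (limma 3.58.1), a fit of the compared groups only, a replicate block, the slow-fibre score as a covariate, leaving out mitochondrial genes, and leaving out each library.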

Additional observations from a re-analysis of the deposited data

Results flagged for a closer look

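Among 40 sets of 5 libraries (each of the 8 genes, Arntl and the slow-fibre score in each group), 2 held a library set apart from the other 4 by Dixon's criterion for 5 values; chance sets apart about 1 in 20. Mef2c reached 747.0 CPM in replicate 4 of iMSBmal1KO exercise, and the next library of that group held 511.9 CPM, a gap of 0.774 of the range. Mef2d held 220.1 CPM in replicate 2 of vehicle rest, and the next held 233.6 CPM, a gap of 0.865 of the range, so the lowest library of that group was also the one nearest to the iMSBmal1KO libraries at rest.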

How the results depend on the processing

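Over 1520 recomputed log2 differences of the 8 genes (12 alternatives and 20 fits that each left out 1 library), 1441 kept their direction and their side of the threshold, 55 turned in sign, 22 lost a call and 2 gained one. The number of members called after exercise, 1 in the model reported, was 0 without a filter on low counts, 0 when only the compared groups were fitted and 0 without the 5 libraries of lowest slow-fibre score, an alternative chosen after seeing the data. The number called on average was 0 without a filter, 0 with the replicate block and 0 without those 5 libraries. Both counts ran from 0 to 1 when 1 library was left out. With the slow-fibre score as a covariate 1 member was called at rest (Mef2d) and 1 in the vehicle exercise response (Myod1), in a fit that called more genes in all, 844 instead of 523 at rest and 248 instead of 109 in the vehicle exercise response. DESeq2 gave adjusted p of 6.21e-04 and 0.00285 for the 2 Myod1 calls, and limma-voom 0.0162 and 0.0231. Over all genes DESeq2 called 195 in the vehicle exercise response, where edgeR called 109, and 3 in the interaction, where edgeR called 0. The cause of these differences was not tested.

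Changes of sign were mostly of values near 0, and none of the values that turned had passed the test. Scaling by library size only gave 0.0027 for Mef2d after exercise. The covariate gave 0.044 for Myog at rest, 0.022 for Myf5 in the vehicle exercise response and -0.12 for Myod1 in the iMSBmal1KO exercise response. Without the 5 libraries of lowest score, Mef2c was -0.019 at rest, -0.17 after exercise, 0.021 and -0.13 in the exercise responses of vehicle and iMSBmal1KO, -0.15 in the interaction and -0.095 on average. In the same fit Myf5 was -0.082 after exercise and -0.0063 on average, Mef2a was -0.049 and Mef2d 0.013 after exercise, Myf6 was 0.17 in the interaction, and Myod1 was -0.17 in the iMSBmal1KO exercise response.

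When 1 library was left out, the sign turned for these values. At rest they ran from -0.19 to 0.12 for Myog, -0.0083 to 0.39 for Myf5 and -0.053 to 0.060 for Mef2c. After exercise they ran from -0.050 to 0.14 for Myf5, -0.037 to 0.081 for Mef2a, -0.063 to 0.17 for Mef2c and -0.096 to 0.018 for Mef2d. In the vehicle exercise response they ran from -0.13 to 0.12 for Myf5 and -0.088 to 0.040 for Mef2c, and in the iMSBmal1KO response from -0.34 to 0.060 for Myf5 and -0.091 to 0.12 for Mef2c. In the interaction they ran from -0.33 to 0.063 for Myf5, -0.14 to 0.092 for Myf6 and -0.075 to 0.16 for Mef2c, and on average from -0.0041 to 0.22 for Pax7 and -0.026 to 0.089 for Mef2c. The slow-fibre score difference after exercise, -0.50 over all libraries, ran from -1.80 to 0.47.

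Whether the replicate numbers pair the libraries is not given in the labels and was not settled by the values. Same-numbered libraries had correlations of their deviations from the group means between -0.45 and 0.44 over 30 pairs, 15 of them over 0.1, and 7 of 30 correlated best with their own number. With the replicate number as a block, Myod1 was 1.10 after exercise (adjusted p = 0.0473) and 0.67 on average (adjusted p = 0.0587), and Myf5 in the vehicle exercise response turned to 0.019. Myf5 and Pax7 had the fewest counts, 8 to 38 per library.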

Other observations

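For each of the 8 genes, the most similar of 11716 other genes was sought by Pearson's r of log2 CPM over the 20 libraries after removal of group means. These r are the highest of many and describe these libraries only, which share their depth and fibre content. Myf6 was closest to Derl1 (r = 0.93), Rab2a (0.93) and Psmd6 (0.92). Mef2c was closest to Ankrd28 (0.94), Ccser2 (0.93) and Eif4g2 (0.90), and Mef2a to Snx13 (0.91), Zfp654 (0.90) and Hipk3 (0.88). Mef2d was closest to Gm17197 (0.89), Zbtb4 (0.88) and Efcab6 (0.88). Myod1 was closest to B230398E01Rik (0.88), Hist3h2a (0.87) and Aurka (0.87), and with group means kept to Herpud2 (0.89), Ksr1 (0.87) and Asb14 (0.86). For the genes of low counts the best r was smaller, at 0.78 for Myog with Pld3, 0.80 for Pax7 with Pias4 and 0.73 for Myf5 with Harbi1.

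The acetylcholine receptor gene Chrnb1 held 47.1, 71.6, 52.1, 131.5 and 43.6 CPM in replicates 1 to 5 of iMSBmal1KO exercise and 18.7, 48.5, 23.6, 33.3 and 31.6 CPM in vehicle exercise. Replicates 4 and 2 were highest under the iMSBmal1KO label, as for Chrna1 and Myod1. Replicate 2 was highest in vehicle exercise, as for Myod1, while it was lowest there for Chrna1. The Chrnb1 groups overlapped.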
